A study of Mus musculus with 6 samples.

Results

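The liver X receptors and their sterol efflux targets were examined in the livers of L1-Tg mice, which express human NPC1L1 in hepatocytes, and of WT littermates. The set held 9 listed genes of 37074 represented on the array, where each probe name without a matched symbol also counted as a gene. They were the receptors Nr1h2 and Nr1h3, the transporters Abca1, Abcg1, Abcg5 and Abcg8, and the targets Mylip, Lpcat3 and Pltp. Each gene was found by the RefSeq name of its probe, which gave 11 probes.

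L1-Tg mice were hemizygous for an APOE-NPC1L1 transgene from a single line (B6;D2-Tg(APOE-NPC1L1)20Lqyu/J), backcrossed to C57BL/6J for 8 generations or more. The WT controls were littermates without the transgene. All mice were males of 6 to 12 weeks on a control-fat diet (CFD), and no high-fat group was on the arrays. Each of the 3 arrays per genotype carried Cy3-labeled RNA pooled from 2 or 3 livers, so n counts pools. The ApoE promoter directs the transgene to hepatocytes, and whether the mouse Npc1l1 probe also reads the human RNA was not tested. That probe was well above background on 1 L1-Tg and 2 WT arrays and was not tested.

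LXR alpha (Nr1h3) and LXR beta (Nr1h2) are nuclear receptors that bind oxysterols, the oxidized forms of cholesterol, and act on DNA as heterodimers with RXR. In sterol-loaded cells they turn on genes that move cholesterol out of the cell, into bile or onto HDL, and genes of fatty acid synthesis. NPC1L1 takes up cholesterol, in human liver from bile at the canalicular membrane. The levels of LXR target RNAs are at most an indirect sign of the sterol state of the liver, which the arrays do not measure. The comparison of L1-Tg with WT livers on a CFD asked whether these targets differed, and in the same direction.

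Stretches of mouse genome (GRCm38.p6, from the RefSeq promoter table) show how the transporter genes are laid out. LXR and RXR bind a direct repeat of the half-site AGGTCA with any 4 bases in between, and this repeat was searched on both strands of the 250 bases before and 50 bases after each start. The search covered 10 windows of the members, with none for Abcg1. The closest match was in Abca1, with 3 of 12 scored bases different, 51 bases before the start and on the opposite strand. Of 32851 windows of this length, 21.9% held a match as close. The other members with a window held matches with 4 or 5 different bases, as close as 76.9% or 99.8% of all windows held. The 250 bases before the Abca1 start (chr4:53159896-53160145, minus strand) are shown with the half-sites of that match in capitals.

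Abca1: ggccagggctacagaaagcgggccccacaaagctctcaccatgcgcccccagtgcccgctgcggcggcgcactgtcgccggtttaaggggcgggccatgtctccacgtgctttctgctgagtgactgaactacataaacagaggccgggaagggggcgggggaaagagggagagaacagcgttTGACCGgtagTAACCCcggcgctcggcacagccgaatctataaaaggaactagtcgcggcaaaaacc

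Abcg5 and Abcg8 encode the subunits of 1 transporter and lie head to head, with 109 bases between their starts (chr17:84683012-84683120, plus strand, which is the strand of Abcg8). The interval is shown because both genes share it, with the core of the GATA factor motif, searched as GATAA on both strands, in capitals. It held 2 matches, both on the minus strand. Of 32851 upstream windows of the same length, 9.36% held a match and 0.788% held as many. A match of letters is a description and not a binding site.

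Abcg5-Abcg8 interval: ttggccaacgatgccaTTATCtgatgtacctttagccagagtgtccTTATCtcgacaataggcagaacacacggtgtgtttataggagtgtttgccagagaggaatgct

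The array held 62976 spots. At 53.1 to 59.2% of spots per array the signal was well above background, and 0 spots were saturated. Levels are log2 signals relative to the 75th percentile of the array, which lay at an intensity of 297 to 378 before scaling. All 6 arrays were on 1 slide that was scanned once, with WT in row 1 and L1-Tg in row 2, so the row and the genotype cannot be told apart. The hepatocyte markers, Alb and Hnf4a among them, were well above background on all arrays for 10 of 10 genes. Markers of pancreatic acinar cells were highest in L1-Tg replicate 2. Of 6 listed markers 3 were tested, and 2 were well above background on all 6 arrays. The other tested marker was so on all arrays of only 1 group. In the median of the 3, all L1-Tg arrays were higher than all WT arrays. The Ctrb1 groups overlapped, at 1.1, 4.17 and 0.98 in L1-Tg and 1.11, 1.13 and 1 in WT. The median tested marker, relative to the WT mean, was at 0.73, 4.44 and 1.15 on the L1-Tg arrays. On the WT arrays it was at 0.26, 0.05 and -0.08. The summed signal of all 6 listed acinar markers, relative to the 75th percentile, was 2.56 to 39.3 in L1-Tg and 2.21 to 2.46 in WT. The part of this signal in any result was not tested. Without L1-Tg replicate 2, 15 genes of the whole array passed an adjusted p of 0.05 (limma) in place of 29, and 0 members did. The number was 9 to 19 whichever single array was left out.

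Of the 9 genes, 0 differed between L1-Tg and WT livers at an adjusted p under 0.05 (limma, Benjamini-Hochberg over 22327 genes), where 29 genes or 0.13% of all tested passed, 0.121% as higher and 0.00896% as lower. All 11 probes were well above background on all 6 arrays, so no member was lost to the filter on dim probes. Abcg1 was the single member with an unadjusted p under 0.05, a level that 8.86% of tested genes reached, 4.55% as higher. It was also the single member whose groups did not overlap, as was the case for 15.9% of tested genes, 7.26% as higher. Of the members, 5 had a mean above and 4 a mean below that of WT, with a median log2 difference of 0.01, and 43.1% of all tested genes were above 0 with a median of -0.03. The members' median was -0.02, -0.05 and -0.07 without L1-Tg replicate 3, WT replicate 2 and WT replicate 3. The median standard error over all genes was 0.13 on the log2 scale.

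**Figure D1:**
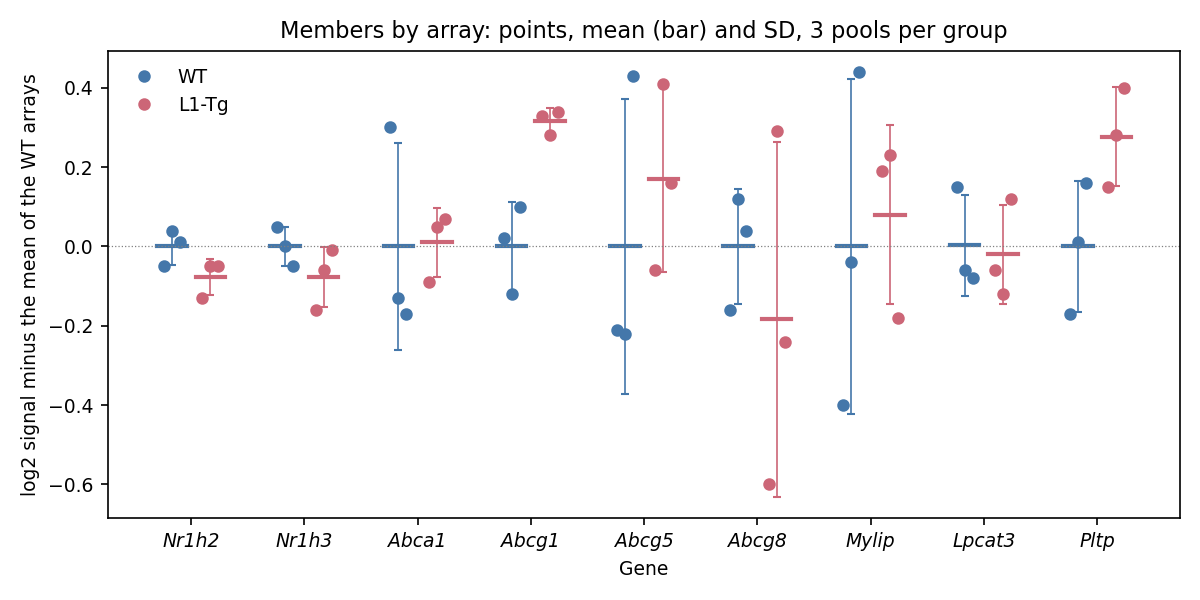
Log2 signal of each member on each array, minus the mean of the 3 WT arrays (vertical axis), for WT (blue) and L1-Tg (red). Points are pools, thick bars are means and thin bars are SD (n = 3). The Abcg1 groups do not overlap, and all other members do.

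The receptors themselves were measured with little spread. Nr1h2, which is expressed in most tissues, had log2 levels of 4.44, 4.52 and 4.52 in L1-Tg and 4.52, 4.61 and 4.58 in WT. After rounding, L1-Tg replicates 2 and 3 and WT replicate 1 were all at 4.52, and the groups overlapped there. The difference was -0.08 ± 0.09 (SE; 95% interval -0.28 to 0.13; adjusted p = 0.778 by limma). Nr1h3, the form enriched in liver and macrophages, had levels of 4.99, 5.09 and 5.14 in L1-Tg and 5.2, 5.15 and 5.1 in WT. These groups overlapped, and the difference was again -0.08 ± 0.09 (95% interval -0.29 to 0.14; adjusted p = 0.786). The second Nr1h3 probe gave -0.05 ± 0.11. In fold terms the intervals ran from 0.823 to 1.09 for Nr1h2 and from 0.817 to 1.1 for Nr1h3. The pooled SD between arrays of a genotype was 0.05 for Nr1h2 and 0.06 for Nr1h3 on the log2 scale, and 98.1% and 94.6% of tested genes had a larger one. With the array median as the scale both differences were 0.03, against a shift of the median of all genes from -0.03 to 0.08.

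Abca1 moves cholesterol and phospholipid onto lipid-poor apoA-I. Its log2 levels were 2.84, 2.98 and 2.99 in L1-Tg and 3.23, 2.79 and 2.75 in WT. WT replicate 1 was the highest of the 6 arrays, and the L1-Tg arrays lay inside the WT range. The difference was 0.01 ± 0.15 (SE; 95% interval -0.35 to 0.37; adjusted p = 0.988), and its sign turned in 4 of 18 alternatives, each of which left out 1 array (-0.01 without L1-Tg replicate 2, -0.08 without WT replicate 3).

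Abcg1 moves cholesterol onto HDL particles and is known above all from macrophages. Its log2 levels were 1.40, 1.36 and 1.42 in L1-Tg and 1.1, 0.96 and 1.18 in WT. All L1-Tg arrays were above all WT arrays, and the L1-Tg arrays lay within 0.06 of each other. The mean was 1.40 ± 0.03 (SD, n = 3) in L1-Tg and 1.08 ± 0.11 in WT. The difference of 0.32 ± 0.09 (SE; 95% interval 0.09 to 0.55) is a ratio of 1.25 (1.06 to 1.46). The unadjusted p was 0.0144, which was rank 668 among the 22327 tested genes, and the adjusted p was 0.478 in limma. Over the 18 alternatives the difference was 0.26 to 0.43 and the adjusted p 0.302 to 0.936.

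Abcg1 RNA in liver comes in part from Kupffer cells, the resident macrophages, whose markers include Clec4f, Vsig4 and C1qb. Of 11 tested markers, 10 were higher in L1-Tg, with a median log2 difference of 0.30, and 0 passed at an unadjusted p under 0.05 in limma. The median marker, relative to the WT mean, was at 0.43, 0.16 and 0.27 on the L1-Tg arrays and at -0.40, -0.11 and 0.52 on the WT arrays. WT replicate 3 had the highest median marker and an Abcg1 level of 1.18. The summed marker signal overlapped between the groups, at 123 to 145 in L1-Tg and 83.3 to 148 in WT relative to the 75th percentile. Of 6 tested monocyte and neutrophil markers, 5 were higher with a median of 0.54. The summed signal of the 7 on the array was 16.7 to 19.2 in L1-Tg and 14.5 to 26.0 in WT. Of 7 tested lymphocyte markers, 5 were higher with a median of 0.36. The summed signal of the 8 on the array was lower, at 13.7 to 15.1 against 15.4 to 16.9. Of the monocyte and neutrophil markers 4, and of the lymphocyte markers 4, were well above background on all 6 arrays. The other tested ones were so on all arrays of only 1 group, so these counts and medians can favor the group where a dim marker is high. The part of these cells in the Abcg1 difference was not tested. In whole liver, fewer cells of a type and less RNA per cell cannot be told apart.

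Abcg5 and Abcg8 form the heterodimer that secretes sterols into bile, and neither differed beyond the spread between pools. Abcg5 had log2 levels of 4.85, 5.32 and 5.07 in L1-Tg and 4.71, 4.70 and 5.34 in WT. WT replicate 3 was the highest array, and the other WT arrays were the lowest. The difference was 0.17 ± 0.22 (SE; 95% interval -0.35 to 0.69; adjusted p = 0.808), and it ranged from 0.05 without L1-Tg replicate 2 to 0.38 without WT replicate 3. Abcg8 had levels of -0.49, 0.40 and -0.14 in L1-Tg and -0.05, 0.22 and 0.15 in WT. L1-Tg held both the highest and the lowest array, so the WT values lay inside the L1-Tg range. The difference was -0.18 ± 0.23 (95% interval -0.74 to 0.37; adjusted p = 0.799). It was -0.42 without L1-Tg replicate 2 and 0.02 without L1-Tg replicate 1. The means of the paired subunits thus lay on opposite sides of WT, each by less than its own standard error.

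Mylip, Lpcat3 and Pltp are LXR targets outside the group of transporters. Mylip, also called IDOL, is a ubiquitin ligase, and its log2 levels were 0.81, 0.85 and 0.44 in L1-Tg and 0.22, 0.58 and 1.05 in WT. The WT arrays spanned the whole L1-Tg range, and the difference was 0.08 ± 0.23 (SE; 95% interval -0.48 to 0.64; adjusted p = 0.920). It was 0.01 without L1-Tg replicate 2, -0.12 without WT replicate 1 and 0.30 without WT replicate 3. A second Mylip probe gave -0.03 ± 0.25. Lpcat3, which places polyunsaturated fatty acids in phospholipids, had levels of 3.90, 3.84 and 4.08 in L1-Tg and 4.11, 3.90 and 3.88 in WT. The groups covered nearly the same range, with a difference of -0.02 ± 0.11 (95% interval -0.30 to 0.25; adjusted p = 0.958) whose sign turned in 6 of 18 alternatives (0.03 without L1-Tg replicate 2).

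Pltp, a plasma protein that transfers phospholipids between lipoproteins, had log2 levels of 0.95, 1.08 and 1.20 in L1-Tg and 0.63, 0.81 and 0.96 in WT. The groups overlapped by 1 array each, with WT replicate 3 at 0.96 just above L1-Tg replicate 1 at 0.95. The difference was 0.28 ± 0.12 (SE; 95% interval -0.02 to 0.58), a ratio of 1.21. The unadjusted p was 0.0629 and the adjusted p 0.571 in limma, with a range of 0.366 to 0.936 over the alternatives. WT replicate 3, the highest WT array for Pltp, was also the highest for the Kupffer markers, whose part in the Pltp difference was not tested.

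**Figure D2:**
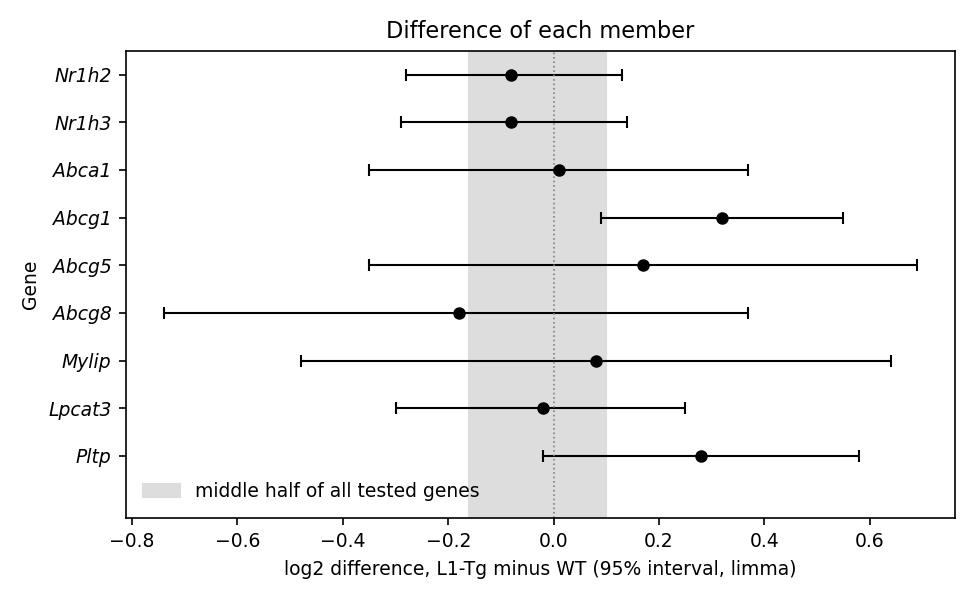
Log2 difference, L1-Tg minus WT, of each member (points) with its 95% interval from limma (bars). The shaded band runs between the quartiles of all tested genes, -0.16 and 0.10, and Abcg1 is the member whose interval lies above 0.

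The methods of the study use a difference index, the difference of the linear means divided by the sum of the SDs, with 0.7 as its limit. Abcg1 at 2.42 and Pltp at 0.97 were above it, and Nr1h2 at -0.81 was below -0.7. The index passes 26.5% of all tested genes, 11.8% as higher and 14.7% as lower, so 3 of 9 members is near the background. The split between higher and lower genes depended on the scaling, with 2630 higher and 3282 lower genes at the 75th percentile and 4361 and 1098 at the array median. Abcg1 and Pltp were past the limit under each scaling tried, and Nr1h2 under the 75th percentile alone.

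Whether the members moved together was read from the arrays as well as from the means. Relative to WT, the median member was at -0.06, 0.23 and 0.07 on the L1-Tg arrays and at -0.05, -0.04 and 0.04 on the WT arrays. On L1-Tg replicates 1, 2 and 3 the number of members above the WT mean was 3, 6 and 5 of 9, and 4, 4 and 6 on the WT arrays. The lowest L1-Tg array was below all WT arrays. Of 36 pairs of members, 18 had a Pearson r above 0 over the 6 arrays, with a range from -0.88 to 0.77.

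The pair with the strongest relation ran in opposite directions. Mylip and Lpcat3 had r = -0.88 (exact permutation p = 0.0167, two-sided; adjusted p = 0.562 over 36 pairs) and rho = -0.89 (exact permutation p = 0.0333, adjusted p = 0.612). Without the 2 arrays farthest from the Mylip median r was -0.87, and after the group means were removed it was -0.88. This was the single pair of 36 with an unadjusted p under 0.05. Abcg1 and Pltp had r = 0.77 (exact permutation p = 0.0806, adjusted p = 0.562) and rho = 0.77 (exact permutation p = 0.103, adjusted p = 0.612). That r was 0.54 without the 2 outer arrays and 0.27 after the group means were removed. Abcg5 and Abcg8, despite their shared interval, had r = 0.41 (exact permutation p = 0.417, adjusted p = 0.760) and rho = 0.14 (exact permutation p = 0.803, adjusted p = 0.963), with r = -0.43 without the 2 outer arrays. Among 13910 other tested genes with a symbol, Abcg8 was rank 3157 in likeness to Abcg5.

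**Figure D3:**
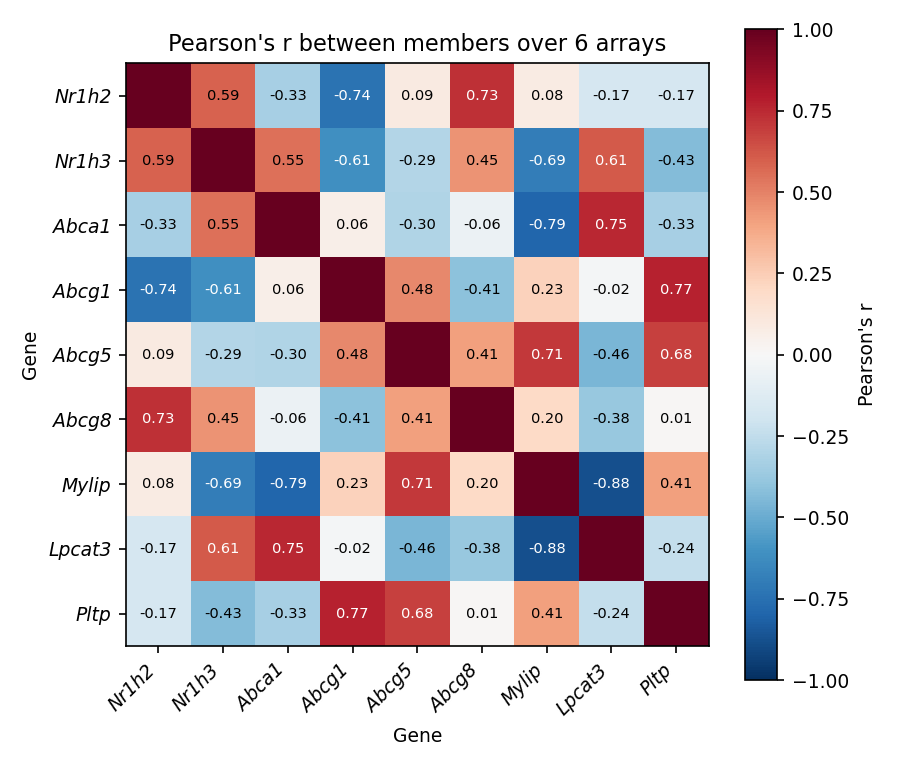
Pearson's r between the log2 signals of each pair of members over the 6 arrays (color and numbers). Values run from -0.88 for Mylip and Lpcat3 to 0.77 for Abcg1 and Pltp, and positive and negative pairs are equally many.

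With 6 arrays many genes follow any given profile. Between 62 genes for Nr1h2 and 345 for Abcg1 had r above 0.9 among the 13910 compared. The nearest to Abcg1 were Ets2 (r = 0.999), Tor1aip2 and Akr1c14, and the nearest to Pltp were Ppm1h (r = 0.995), Lgals9 and Atrip. Abca1 was nearest to Slc10a2, Mrps16 and Ndufc1. Abcg5 was nearest to Tuba8, Mocs2 and Tmem123, and Abcg8 to Bcdin3d, Fbp1 and Itih4, with no gene in both lists. Nr1h2 was nearest to Phf20l1, Trappc12 and Pick1, and Nr1h3 to Shld1, Kank2 and Copb2. Mylip was nearest to Zfp958, Cyp3a11 and Grn, and Lpcat3 to Heatr5a, Stbd1 and Mcm5.

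The genes that work with the receptors gave 0 calls in each of 6 lists (adjusted p under 0.05, limma), as did the members, and a per-gene test without moderated variances called 0 genes on the whole array. Of 14 RXRs and cofactors, 8 were higher and 6 lower, the median log2 difference was 0.04, and 0 had an unadjusted p under 0.05. The groups did not overlap for 1 higher and 2 lower genes, against 7.26% and 8.64% of tested genes. Rxra, the main RXR of liver, had levels of 0.28, 0.26 and 0.37 in L1-Tg and 0.57, 0.56 and 0.40 in WT. The difference was -0.20 ± 0.09 (SE; adjusted p = 0.581). Rxrb, the other lower gene without overlap, was at -0.16 ± 0.09 (adjusted p = 0.618). The coactivators Ncoa2 and Ncoa6 were at 0.12 ± 0.09 and 0.11 ± 0.09 (adjusted p = 0.682 for both), and the Ncoa2 groups did not overlap. The Rxrg difference of -0.60 ± 0.57 came with 1 WT array at 6.09 and the other two at 4.03 and 3.87, and was 0.11 without that array.

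The enzymes that make and remove oxysterols and bile acids had means on both sides of WT. Of 7 tested enzymes, 4 were higher and 3 lower with a median of 0.04, while Ch25h and Sult2b1 were too dim to test. An unadjusted p under 0.05 (limma) was reached by 1, against 8.86% of tested genes. The median was -0.10 without WT replicate 1 and -0.01 without WT replicate 3. Cyp39a1, which hydroxylates 24-hydroxycholesterol, was at 2.99, 3.65 and 3.66 in L1-Tg and 2.77, 2.39 and 3.17 in WT. The groups overlapped at L1-Tg replicate 1, and the difference was 0.66 ± 0.26 (unadjusted p = 0.0441, adjusted p = 0.555 by limma). Cyp7a1, the rate-limiting enzyme of bile acid synthesis and an LXR target in mice, was at 2.5, 2.59 and 2.39 in L1-Tg and 2.46, 3.10 and 3.28 in WT. Its difference of -0.45 ± 0.22 had an adjusted p of 0.589 and was -0.28 without WT replicate 3, and WT replicate 1 lay inside the L1-Tg range. Cyp7b1 and Cyp46a1 were at -0.36 ± 0.33 and -0.13 ± 0.09, and Hsd3b7 at 0.21 ± 0.16 (adjusted p from 0.657 to 0.725). Cyp46a1 was the single enzyme whose groups did not overlap, as lower, against 8.64% of tested genes.

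The lipogenic targets, through which LXR raises fatty acid synthesis, were spread widely between pools. Of 15 genes, 8 were higher and 7 lower, with a median of 0.03. In each direction 1 gene had an unadjusted p under 0.05 (limma), against 4.55% of tested genes as higher and 4.31% as lower. The groups did not overlap for 1 gene in each direction, against 7.26% as higher and 8.64% as lower. The median was -0.19 without L1-Tg replicate 3, -0.08 without WT replicate 2, -0.13 without WT replicate 3 and 0.21 without WT replicate 1. Me1, malic enzyme, which supplies NADPH, was at 4.35, 4.52 and 4.88 in L1-Tg and 3.79, 3.94 and 3.97 in WT. All L1-Tg arrays were above all WT arrays, by 0.68 ± 0.15 (unadjusted p = 0.0038, adjusted p = 0.346 by limma). Elovl5, which lengthens polyunsaturated fatty acids, was lower on all L1-Tg arrays, at -0.55 ± 0.19 (adjusted p = 0.528). The desaturases Fads2 and Fads1 were at -0.39 ± 0.24 and -0.31 ± 0.28 (adjusted p = 0.641 and 0.718). Srebf1, the central lipogenic regulator and a direct LXR target, ran from -0.97 to 0.21 in L1-Tg and from -1.14 to 1.05 in WT, with WT holding both extremes. Its difference was -0.30 ± 0.58 (adjusted p = 0.874) and was 0.28 without WT replicate 1.

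Of 10 tested further LXR targets, 4 were higher and 6 lower, with a median of -0.05, and Apoc2 was not matched to a probe. An unadjusted p under 0.05 (limma) was reached by 1, against 8.86% of tested genes. The groups did not overlap for 1 higher and 1 lower gene, against 7.26% and 8.64% of tested genes. Smpdl3a, a phosphodiesterase, was at 3.87, 3.91 and 3.93 in L1-Tg and 3.36, 3.38 and 3.83 in WT, without overlap, by 0.38 ± 0.15 (unadjusted p = 0.0397, adjusted p = 0.547). Cd5l, a protein secreted by macrophages, was at 5.93, 5.67 and 5.94 in L1-Tg and 4.75, 5.09 and 5.79 in WT. WT replicate 3, the array with the most Kupffer marker signal, lay within the L1-Tg range, and the difference was 0.63 ± 0.27 (adjusted p = 0.560). The lipoprotein gene Apoc4, the lower gene without overlap, was at -0.15 ± 0.09 and the lysosomal sterol carrier Npc2 at 0.16 ± 0.11 (adjusted p = 0.629 and 0.672). Arl4c, like Rxrg, was high in WT replicate 2, at 6.33 against 4.54 and 4.41 in the other WT arrays, with a difference of -0.64 ± 0.51 that was -0.02 without that array.

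The partners of efflux are mostly genes of HDL, of hepatic lipoprotein uptake and of bile lipid transport. Soat1 and Soat2 are also on this list. Of 16 listed genes 11 were tested. Of these 11, 10 had a lower and 1 a higher mean in L1-Tg, beside 43.1% of all tested genes above 0, and 0 passed the adjusted threshold. The median was -0.13, and -0.21 without L1-Tg replicate 2. In 4 the groups did not overlap, all lower, a share of 8.64% among tested genes, and 3 of these had an unadjusted p under 0.05, against 4.31% of tested genes. Scarb1, the HDL receptor that takes up cholesteryl esters, was at 4.48, 4.52 and 4.29 in L1-Tg and 4.96, 4.72 and 4.73 in WT. Each L1-Tg array was below each WT array, by -0.38 ± 0.11 (SE; unadjusted p = 0.0152, adjusted p = 0.479). Apoa1, the main protein of HDL and the acceptor of Abca1, was at 7.58, 7.83 and 7.79 in L1-Tg and 8.56, 8.16 and 7.93 in WT, at -0.49 ± 0.18 (unadjusted p = 0.0306, adjusted p = 0.532). Lipc, hepatic lipase, was at 1.46, 1.43 and 1.30 against 1.75, 1.77 and 1.58 in WT, at -0.31 ± 0.10 (unadjusted p = 0.0220, adjusted p = 0.506). Lcat, which esterifies cholesterol on HDL, was the other gene without overlap, at -0.11 ± 0.09 (adjusted p = 0.682). The exception in direction was the lipoprotein receptor Vldlr, at 0.60 ± 0.36 (adjusted p = 0.639), which was 0.19 without WT replicate 2. The list's median depended on the scaling, at -0.04 after quantile normalization and -0.02 with the array median as the scale, where the median of all genes was 0.08.

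**Figure D4:**
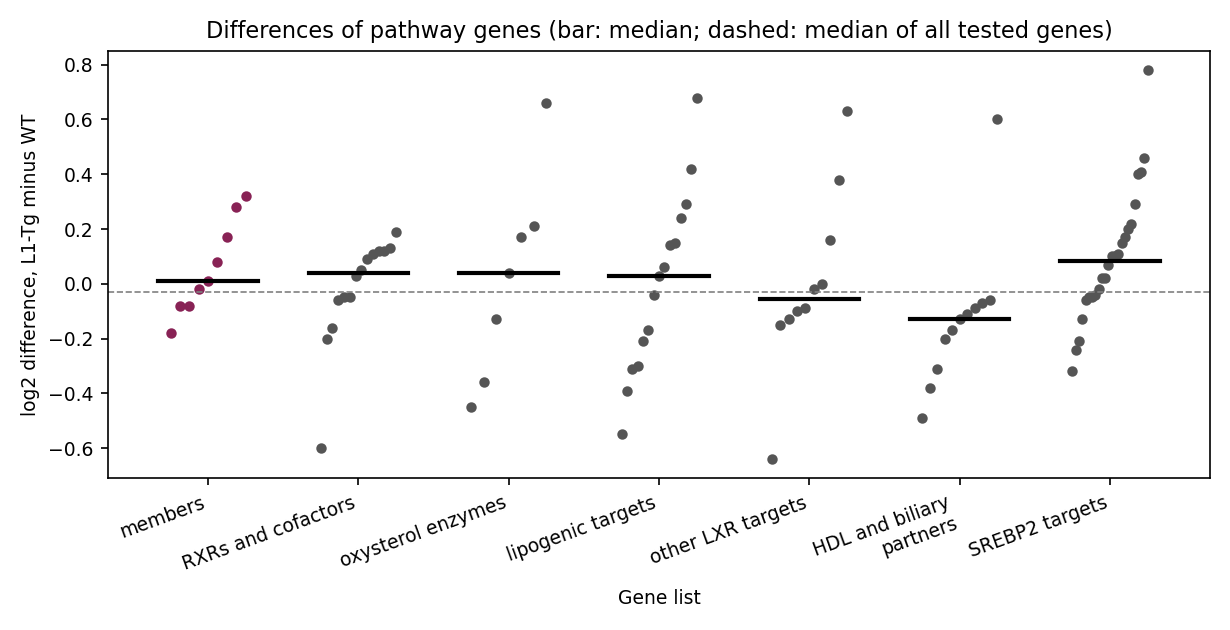
Log2 difference, L1-Tg minus WT, of each tested gene in the members and 6 pathway lists (points), with list medians (bars) and the median of all tested genes, -0.03 (dashed line). List medians lie between -0.13 for the HDL and biliary partners and 0.08 for the SREBP2 targets.

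SREBP2 targets, the genes of cholesterol synthesis and uptake, are turned down when cells hold much sterol and so run opposite to LXR targets. Of 24 tested, 15 were higher and 9 lower, with a median of 0.08, and 0 had an unadjusted p under 0.05. The median was -0.15 without L1-Tg replicate 3, -0.17 without WT replicate 3, 0.16 without L1-Tg replicate 2 and 0.28 without WT replicate 1. Their spread between pools was the widest of the 6 lists, with a median pooled SD of 0.59 on the log2 scale, against 0.15 for the 9 members and 0.17 for all tested genes. Sqle, squalene epoxidase, ran from 0.12 to 2.72 in WT and from 2.03 to 3.48 in L1-Tg, with a difference of 0.78 ± 0.75 (adjusted p = 0.738). It was -0.02 without WT replicate 3. Cyp51 was at 0.46 ± 0.56 and -0.18 without that array, and Hmgcs1 was at 0.40 ± 0.30. Ebp and Stard4, a sterol isomerase and a sterol carrier, were at -0.21 ± 0.16 and -0.32 ± 0.44 (adjusted p from 0.677 to 0.816 for these 4 genes).

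The array-by-array medians showed the same wide spread of the SREBP2 targets between pools. The median SREBP2 target was at 0.45, 0.21 and -0.57 on the WT arrays and at -0.21, -0.11 and 0.54 on the L1-Tg arrays, relative to the WT mean. WT replicate 3 was the lowest and L1-Tg replicate 3 the highest, so the range within each genotype exceeded the difference between genotypes. The lipogenic targets were also highest on L1-Tg replicate 3 (0.31) and WT replicate 1 (0.25), and lowest on L1-Tg replicate 1 (-0.38) and WT replicate 3 (-0.29). The median of the 9 LXR members stayed between -0.06 and 0.23 on all arrays. Single members ran from -0.6 (Abcg8, L1-Tg replicate 1) to 0.44 (Mylip, WT replicate 3).

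**Figure D5:**
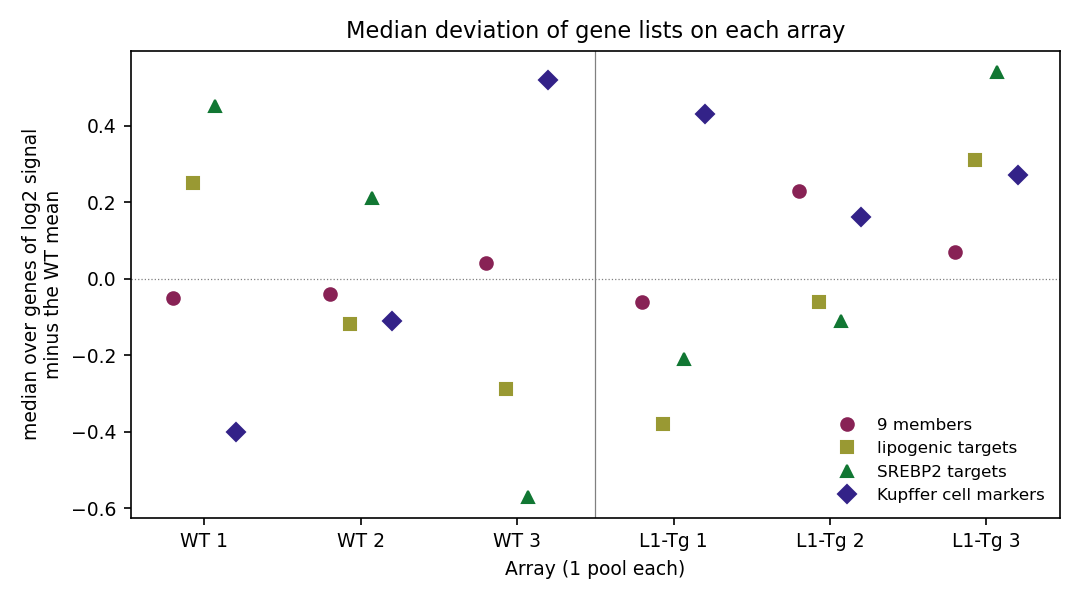
Median over genes of the log2 signal minus the WT mean (vertical axis), for the 9 members, lipogenic targets, SREBP2 targets and Kupffer cell markers on each of the 6 arrays. The median SREBP2 target runs from -0.57 to 0.54 and the median member from -0.06 to 0.23.

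The depth of the design set what could be seen. The 95% intervals of the 9 members reached from -0.29 to 0.14 for the receptors, and from -0.74 to 0.69 for the heterodimer subunits. For Abca1 the interval of the ratio was 0.784 to 1.29, so a larger difference than that lay outside it. With 3 arrays against 3 an exact permutation test of a single gene cannot go below 0.10. The limma p-values set a group difference against the spread between pools, moderated across all genes.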

How the data were processed

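Liver RNA of 3 L1-Tg and 3 WT pools was measured on 1-color Agilent arrays, with groups from the genotype in the labels. The authors extracted the scans in Agilent Feature Extraction (version 10.10.1.1). The processed signal they deposited is an intensity, unscaled and with the background subtracted within each array. Beside it are 0 or 1 marks per spot and a deposited matrix of normalized intensities, which equals the processed signal times 1 factor per array (2.46 to 2.98, how it was set is not given in the sources used here).

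Control spots and outlier spots were left out, repeated spots were averaged, and the 75th percentile of each array was subtracted from log2 signals. Of 28685 probes with a RefSeq name, 27235 matched a symbol. Names without a symbol were kept as genes of their own, and they are among the tested genes. Each gene took the values of its brightest probe, and 22327 genes well above background on all arrays of a group entered a two-sided limma test (version 3.58.1, R 4.3.3) with Benjamini-Hochberg adjustment and a threshold of 0.05. The packages data.table (1.17.8) and jsonlite (2.0.0) read the files. The fit was tested on simulated data. No block for the replicate number was used, since same-numbered arrays correlated by -0.16, 0.11 and 0.02 in their deviations from group means. The number of arrays limits the precision.

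The members, lists and tests were chosen with earlier results of these data known. The text names every member, the up to 5 genes with the smallest p of each list, Npc1l1 and Srebf1, and the 3 genes nearest to each member, and 2 further genes of the rule are not reported here. Marker genes outside this rule were picked with their values in view. The alternatives were quantile, array-median and no scaling, normexp correction (offset 50), the deposited matrix, 2 other filters, the mean of a gene's probes, flagged spots kept, an intensity trend, a per-gene test without moderated variances, the replicate block, and each array left out.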

Additional observations from a re-analysis of the deposited data

How the results depend on the processing

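Over 18 alternatives the number of members past the adjusted threshold was 0 in each, and the members' median log2 difference stayed between -0.07 and 0.12. Abcg1, Pltp and Abcg5 kept their direction in all 18. Lpcat3 turned to 0.02 after quantile normalization, 0.09 with the array median, 0.03 without scaling, 0.03 in the deposited matrix, and 0.03 and 0.05 without L1-Tg replicate 2 and WT replicate 1. With the array median Nr1h2 and Nr1h3 were at 0.03, while the median of all genes went from -0.03 to 0.08. Leaving out 1 array moved Abcg5 between 0.05 and 0.38, Abca1 between -0.08 and 0.16, Abcg8 between -0.42 and 0.02, Mylip between -0.12 and 0.30, and Lpcat3 between -0.09 and 0.05. The same step moved Stard4 between -0.80 and 0.02, Srebf1 between -0.82 and 0.28, Rxrg between -1.0 and 0.11, Sqle between -0.02 and 1.27 and Cyp51 between -0.18 and 0.79. Abca1 was at -0.01, -0.02, -0.05 and -0.08 without L1-Tg replicates 2 and 3 and WT replicates 2 and 3. The median of the RXRs and cofactors was 0.15 with the array median, 0.10 without scaling and 0.09 in the deposited matrix. The oxysterol enzymes went to 0.15 and the other LXR targets to 0.06 with the array median, and the HDL and biliary partners to -0.02 there and -0.04 after quantile normalization. Without WT replicate 1 the oxysterol enzymes were at -0.10. Genes called over the whole array numbered 29, and 10 without a filter, 0 with a test without moderated variances and 9 to 19 with 1 array left out. Without scaling 3815 genes passed the difference index. Array-median scaling, no scaling and the deposited matrix change each array by 1 factor. They shift the log2 difference of every gene measured on all arrays by the same amount. The median of all genes was 0.08, 0.02 and 0.02 there. The cause of the other moves was not tested.

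With the replicate block 11 genes were called, 0 of them members, and Abcg1 had an adjusted p of 0.593. The numbers share only a slide column and were not found to pair the pools.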
